A study of Mus musculus with 12 samples.

Results

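MIR elements (mammalian-wide interspersed repeats) are short retrotransposon copies of great age, and the RNA that carries them was followed here through an L1 ribonucleoprotein purification from mouse testis. Members were chosen by annotation alone, as every repeat of class SINE and family MIR, without use of any measured value. This rule gave 4 of the 1528 repeat subfamilies measured per library (MIR, MIRb, MIRc and MIR3) and 26014 of 781637 single repeat loci, or 3.33% of the loci listed. Of these loci, 9063 are MIRb, 8617 are MIR, 4831 are MIRc and 3503 are MIR3. In what follows, "the MIR family" means all of them and "MIR" alone means the subfamily of that name. They have nothing to do with microRNAs, whose gene symbols look alike.

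All 12 RNA-seq libraries came from testes of C57BL/6 mice about 3 months old that lack Mael (Mael-/-), 3 libraries in each of 4 groups. Mael encodes a germline protein needed to make piRNAs, the small RNAs that silence transposons, and meiotic cells of the mutant accumulate L1 RNA and its protein ORF1p. TOTAL was RNA of the whole testis extract, and INPUT was RNA from pooled fractions 5 to 8 of a 10 to 50% sucrose gradient run in 10 mM EDTA, a chelator that splits ribosomes into subunits. IP was the material pulled from INPUT by an antibody against ORF1p on beads, and BO (beads only) was what the same beads held with no antibody. The mutation was shared by every group, and no wild-type library was analysed here. The labels tie no library to an animal, so the p-values measure the spread between these libraries.

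SINEs are non-coding elements copied by the enzymes of a partner LINE. A MIR element has a head derived from a tRNA, a conserved core and a tail shared with the L2 LINE, which is thought to have moved it. Both families stopped moving long before the rodents arose, whereas the rodent SINEs B1 (listed in the family Alu), B2, B4 and ID are younger and partly use L1. MIR sequence today mostly lies in introns, untranslated ends and intergenic DNA, so MIR reads usually come from longer transcripts in which a copy is embedded. ORF1p, the RNA-binding protein of L1, coats L1 RNA in the particles that the antibody collects.

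The libraries held between 1384904 and 7282171 reads on repeat subfamilies, and between 21894 and 59387 of these fell on the MIR family. IP had the fewest MIR family reads (median 26960) and INPUT the most (median 49295). The small cytoplasmic RNA of the signal recognition particle took 38.1% to 51.6% of TOTAL reads but at most 1.63% in IP and 0.224% in BO, and large-subunit rRNA took 52.1% of BO replicate 3 against 3.18% and 3.25% of the other BO libraries. Levels were therefore read on the deposited scale, which sets the upper quartile of the subfamilies equal between libraries, and against scale-free ratios within a library. In TOTAL the markers of spermatocytes (8 of 8, group means 40.3 to 9433), spermatogonia (5 of 5, 92.6 to 2506), Sertoli cells (6 of 6, 150 to 66084) and Leydig cells (5 of 5, 1744 to 29894) were all present. The 6 spermatid markers ran from 11.7 to 231, and Mael itself was at 0.65 in TOTAL, 0.502 in BO and listed at 0 in INPUT and IP. In such bulk extracts fewer cells of a type and less RNA per cell cannot be told apart.

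The MIR family differed little between the fractions, with group means of a subfamily at most 1.28-fold apart. MIRb was the highest subfamily in 11 of the 12 libraries, MIR was next, MIRc was lower and MIR3 was lowest. Among the retrotransposon and DNA transposon subfamilies of each library MIRb ranked between 28 and 33 and MIR3 between 58 and 78. Summed over the 4 subfamilies the normalized count was 35611 ± 667 in TOTAL, 40582 ± 481 in INPUT, 37686 ± 884 in BO and 34414 ± 2160 in IP (mean ± SD, n = 3 each). The highest group mean was thus INPUT and the lowest IP, and IP also had the widest spread.

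For MIRb, the most abundant subfamily, the normalized counts of replicates 1, 2 and 3 were 11958, 12971 and 12271 in TOTAL, 14254, 13951 and 14199 in INPUT, 12601, 13369 and 12954 in BO, and 11204, 12045 and 13032 in IP. All INPUT values lay above every value of the other groups, and the TOTAL, BO and IP values overlapped. The means were 12400 ± 519 in TOTAL, 14135 ± 162 in INPUT, 12975 ± 384 in BO and 12094 ± 915 in IP (SD, n = 3).

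For MIR, the subfamily that gave the family its name, the corresponding values were 11138, 11121 and 10932 in TOTAL, 12899, 12655 and 12385 in INPUT, 12670, 12878 and 12170 in BO, and 10023, 10720 and 11470 in IP. INPUT and BO overlapped and both lay above all TOTAL and IP values. The means were 11064 ± 114, 12646 ± 257, 12573 ± 364 and 10738 ± 724 in the same order (SD, n = 3).

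For MIRc, the values were 6848, 6831 and 6596.5 in TOTAL, 7889.5, 7563 and 7529 in INPUT, 6940, 7224 and 6879 in BO, and 6441, 6916 and 7005 in IP. Here again INPUT stood above the rest. BO lay just above TOTAL without overlap, and IP overlapped both. The means were 6759 ± 141, 7661 ± 199, 7014 ± 184 and 6788 ± 303 (SD, n = 3).

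For MIR3, the least abundant subfamily, the values were 5397, 5448 and 5321 in TOTAL, 6090, 6072 and 6259 in INPUT, 4804, 5216 and 5353 in BO, and 4536, 4836 and 5013 in IP. All IP values lay below all TOTAL values and all INPUT values lay above them, so that MIR3 was the only 1 of the 4 subfamilies in which TOTAL and IP did not overlap. The means were 5389 ± 64.0, 6140 ± 103, 5124 ± 286 and 4795 ± 241 (SD, n = 3).

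**Figure D1:**
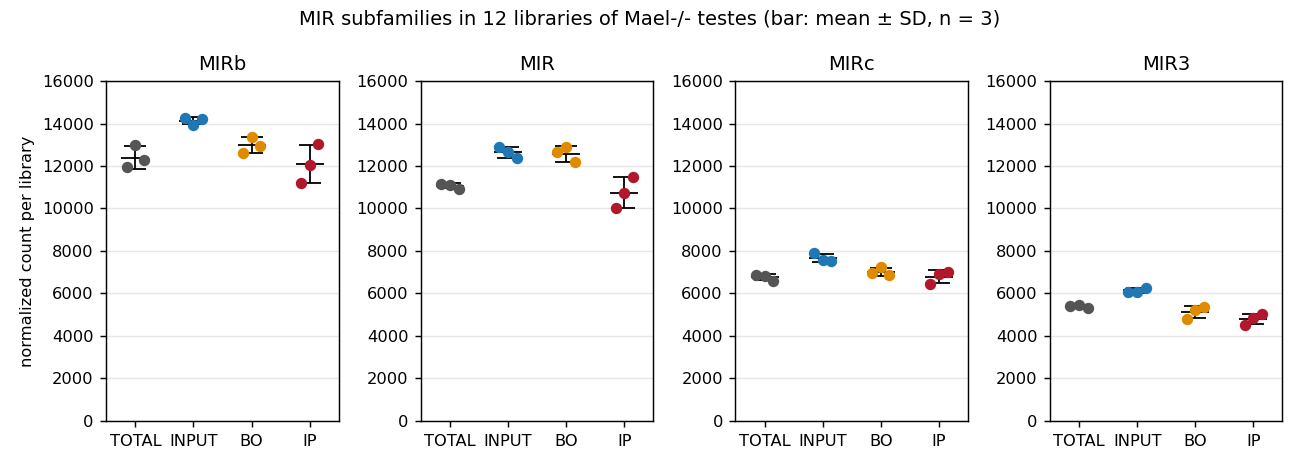
Normalized count of each MIR subfamily (y axis, from 0) in each library (points) of TOTAL, INPUT, BO and IP, with the mean and SD of 3 libraries as a bar. Levels stay within a narrow band, INPUT is the highest group mean in all 4 panels, and the MIR3 values of IP (4536 to 5013) sit below those of TOTAL (5321 to 5448).

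The comparison of IP with INPUT asks which RNAs the ORF1p antibody enriched from the material it was given, and the MIR family was not among them. All 4 subfamilies fell in IP relative to INPUT at an adjusted p under 0.05, against a background of 16.7% of the 1180 tested subfamilies called lower and 11% called higher (limma on the log2 of the normalized count plus 1, Benjamini-Hochberg adjustment over all 1180). MIR3 fell by 0.36 on the log2 scale (standard error 0.063, 95% interval -0.49 to -0.22, limma adjusted p = 0.00139). MIR fell by 0.24 (adjusted p = 0.0153), MIRb by 0.23 (adjusted p = 0.0264) and MIRc by 0.18 (adjusted p = 0.0426), again from limma. These are folds of 1.28, 1.18, 1.17 and 1.13, and none was past a log2 fold change of 1, as 2.88% of tested subfamilies were when called lower and 3.22% when called higher.

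Markers of testis cell types also differed between these groups. The summed group means of the 8 spermatocyte markers were 166750 in IP and 33626 in INPUT (log2 ratio 2.31, 8 of 8 higher in IP), and the log2 ratio was 2.54 against TOTAL (7 of 8 higher) and 3.00 against BO (8 of 8). The 6 Sertoli markers were lower in IP than in INPUT (-1.77, 6 of 6) and TOTAL (-1.61, 6 of 6), and 3 of 6 were lower than in BO (-0.32). The 5 Leydig markers were lower in IP than in INPUT (-1.47, 5 of 5) and TOTAL (-2.35, 5 of 5) and higher than in BO (1.04, 5 of 5). The 5 spermatogonia markers were lower in IP than in INPUT (-0.66, 4 of 5) and TOTAL (-0.80, 5 of 5). Against BO their log2 ratio was -1.14, with 3 of 5 higher. Of the 6 spermatid markers 5 were lower than in INPUT and in TOTAL (1.08 and -0.56), and 2 than in BO (2.09). The IP sum was nearly all Spaca1, at 232.6 on the scale shared with TOTAL, where each of the other 5 was at 0.859 or less. The 2 macrophage markers were at -1.20, -1.07 and 1.15 against INPUT, TOTAL and BO. The 4 peritubular and vessel markers were at -0.09, -0.84 and 0.94 in that order. These sums are group means with no test, and their part in the MIR family differences was not tested.

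The MIR3 decrease kept an adjusted p of 0.0137 or less with limma on totals of transposon reads or median of ratios, with edgeR and with any 1 library left out, whereas it turned to 0.19 when whole library totals set the scale. Over all settings its adjusted p ran from 0.000651 to 0.696, the latter on library totals. That scaling moved the median of all tested subfamilies from -0.06 to 0.47, and MIR, MIRb and MIRc likewise turned to values between 0.31 and 0.37 under it, all below that median. Relative to the median subfamily on the deposited scale, MIR3 stood at -0.29, MIR at -0.17, MIRb at -0.16 and MIRc at -0.11. The number of subfamilies called lower was 1 on transposon totals, 2 with median of ratios, with edgeR or with only the 2 compared groups in the fit, and between 1 and 4 with 1 library left out. It was 1 without INPUT replicate 1, INPUT replicate 2 or IP replicate 1, and 2 without INPUT replicate 3 or IP replicate 2. In these fits with 1 library left out, the log2 values stayed below 0 where calls were lost. Without INPUT replicate 2 MIR was at -0.24, MIRb at -0.24 and MIRc at -0.18 (limma adjusted p = 0.0526, 0.0646 and 0.0907). Among the fits with 1 library left out, the lowest in size were those without IP replicate 1, at -0.19, -0.17 and -0.14. With median of ratios MIR, MIRb and MIRc were smaller still, at -0.16, -0.15 and -0.095.

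SINEs as a class were low in IP relative to INPUT. The median of the MIR family was less low than those of the 4 rodent SINE groups, by margins that were not tested. Of all 35 SINE subfamilies 28 were called lower, with a median log2 fold change of -0.36, against a median of -0.05 over the 933 transposon subfamilies tested. The B1 group had a median of -0.44 with 15 of 16 lower, B2 of -0.37 with 3 of 5, B4 of -0.29 with 2 of 4 and ID of -0.26 with 4 of 4, and the MIR family had -0.23. L2, the partner LINE, had a median of -0.16 with 1 of 4 lower, the CR1 LINEs had 0.06 with 2 of 12 tested lower, and neither of the 2 Deu subfamilies, old SINEs of another lineage, was called.

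The comparison of IP with BO sets the make-up of the RNA held with the antibody beside that held by bare beads. Libraries were scaled to a common upper quartile, so a difference in the amount of RNA held would not be seen. Here 1 subfamily, MIR, was called lower in IP, by 0.23 on the log2 scale (standard error 0.063, limma adjusted p = 0.0140), beside a background of 23.2% of subfamilies called lower and 11.3% called higher. MIRb was at -0.10, MIR3 at -0.10 and MIRc at -0.05, with limma adjusted p between 0.27 and 0.569. The 95% intervals of these 3 differences ran at most from -0.25 to 0.08. No MIR subfamily was past a log2 fold change of 1, beside 3.81% of subfamilies called lower and 5.08% called higher past it. The median of all tested subfamilies was itself -0.12, and relative to it MIR stood at -0.11, MIRb at 0.02, MIR3 at 0.03 and MIRc at 0.08.

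The MIR call against BO held under other pseudocounts and filters and without BO replicate 1, BO replicate 3, IP replicate 2 or IP replicate 3, and was lost under other scalings. With limma it was at -0.08 on transposon totals and -0.11 with median of ratios, and with edgeR it was at -0.10 (adjusted p = 0.214). With only IP and BO in the fit, and without BO replicate 2 or IP replicate 1, it was at -0.23, -0.21 and -0.18, with limma adjusted p of 0.0617, 0.0516 and 0.0504. Over all settings the adjusted p ran from 0.00632 to 0.647. MIRb, MIR3 and MIRc, which were not called, turned to positive values under library totals, transposon totals, median of ratios and edgeR, and MIR turned positive under library totals. Without BO replicate 3, the library rich in rRNA, MIR was at -0.25 with a limma adjusted p of 0.0207. In the same comparison the B1 group had a median of -0.28 with 13 of 16 lower, B4 of -0.26 with 2 of 4, ID of -0.29 with 3 of 4, and L2 of -0.06 with 2 of 4. B2 was mixed, with a median of 0.04, 2 of 5 lower and 2 of 5 higher, 1 of them past a log2 fold change of 1.

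Against TOTAL, which asks how the purified material differs from the starting extract, IP held the MIR family at nearly the same level. None of the 4 subfamilies was called by the main limma fit (minimum mean of 10, no block) or by edgeR. Beside this, 12.5% of subfamilies were called lower and 10.2% higher, and 1 of the 4, MIR3, had an unadjusted limma p under 0.05. Past a log2 fold change of 1, where no MIR subfamily lay, 3.47% of subfamilies were called lower and 2.88% higher. The log2 differences were -0.05 for MIR, -0.04 for MIRb, 0.01 for MIRc and -0.17 for MIR3 (limma adjusted p = 0.0737 for MIR3). With a minimum mean of 100 limma called MIR3 lower (adjusted p = 0.0409), as it did with the replicate number as a block (adjusted p = 0.0384). Same-numbered TOTAL and IP libraries had correlations of -0.057, -0.142 and 0.122. Over the settings that left MIR3 lower its adjusted p ran from 0.0384 to 0.209. The 95% interval of the MIR3 difference was -0.31 to -0.03, and those of the other 3 lay between -0.19 and 0.13. The signs of MIR, MIRb and MIRc are not fixed by the data, since they turned in several of the other scalings or with 1 library left out. The median of the MIR family was -0.04, beside -0.04 for ID with 1 of 4 lower, -0.07 for L2 with 1 of 4 higher and -0.11 for B4 with none of 4 called. B1 had a median of -0.21 with 10 of 16 lower, and B2 one of -0.67 with 3 of 5 lower.

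On library totals all 4 subfamilies were called higher in IP than in TOTAL, by 1.38 to 1.55, where the median of all subfamilies moved to 1.49. The signal recognition particle RNA described above takes up much of the TOTAL total, and its part in that shift was not tested.

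INPUT against TOTAL compares the make-up of the RNA in the gradient fractions, not its amount, with that of the whole extract. The 4 subfamilies moved as a block and by almost the same amount, 0.19 for MIR, MIRb and MIR3 and 0.18 for MIRc, and every INPUT value exceeded every TOTAL value of the same subfamily. None was called by limma (adjusted p between 0.135 and 0.168) or by edgeR, while all 4 had an unadjusted p under 0.05. The background was sparse, with 0.847% of subfamilies called higher and 0.847% lower, and past a log2 fold change of 1 there were 0% higher and 0.339% lower. Same-numbered TOTAL and INPUT libraries deviated together, and with the replicate number as a block the limma adjusted p of the 4 ran from 0.0677 to 0.081, and 67 instead of 20 subfamilies of all 1180 were called. On library totals all 4 were called higher, by 1.18 to 1.20, with the median of all subfamilies at 1.03.

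The median log2 difference of the MIR family between INPUT and TOTAL, 0.19, matched those of B1 (0.19, 3 of 16 called higher) and ID (0.19, none of 4 called), and L2 had 0.12. B2 went the other way, at -0.31 with 2 of 5 called lower.

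BO against INPUT compares the make-up of the RNA on bare beads, not its amount, with that of the material they were given. MIR3 was called lower in BO by 0.26 (standard error 0.063, 95% interval -0.40 to -0.13, limma adjusted p = 0.00785), beside 11.7% of subfamilies called lower and 17.2% called higher. No MIR subfamily was past a log2 fold change of 1, beside 2.8% of subfamilies called lower and 2.63% higher past it. MIR was at -0.01, MIRb at -0.12 and MIRc at -0.13, with limma adjusted p between 0.13 and 0.947. Leaving out any 1 library kept MIR3 at an adjusted p of 0.0367 or less, and without BO replicate 3 it was at -0.29 (adjusted p = 0.0107). On library totals MIR3 was at -0.21 and was not called (adjusted p = 0.879), and the lowest adjusted p over the settings was 0.00122 with edgeR. MIRc was also called on transposon totals, and MIRb and MIRc were also called with median of ratios and with edgeR, so that the count of subfamilies lower in BO ran from 0 to 3 over the settings.

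**Figure D2:**
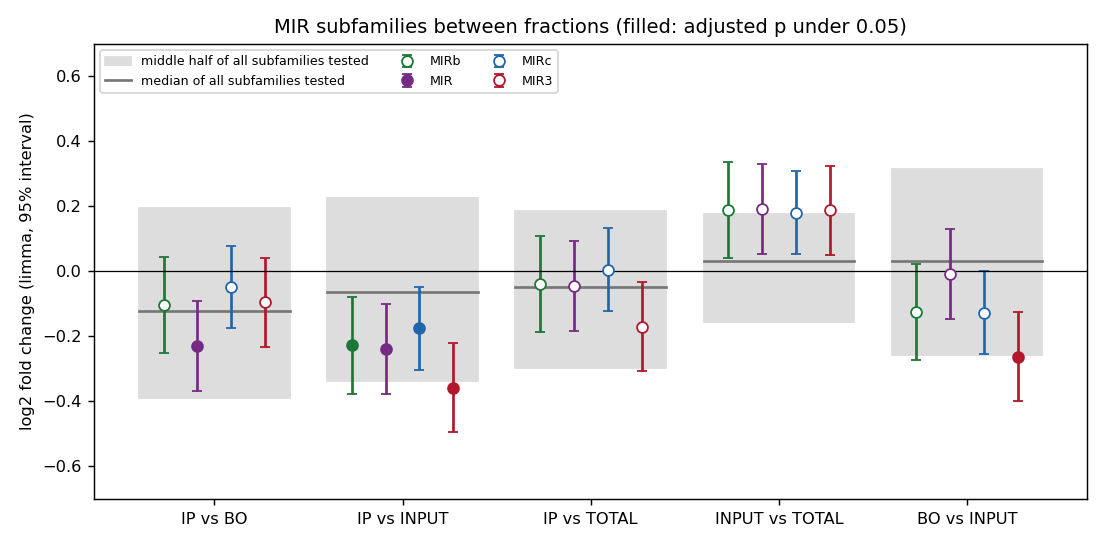
Log2 fold change of the 4 MIR subfamilies (points, with 95% intervals of limma) in 5 comparisons, over the interquartile range (grey box) and median (grey line) of all 1180 tested subfamilies. Filled points have an adjusted p under 0.05: all 4 in IP vs INPUT, MIR in IP vs BO and MIR3 in BO vs INPUT, and MIR3 has the lowest point in IP vs INPUT, in IP vs TOTAL and in BO vs INPUT.

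Ratios of reads within a library do not depend on how libraries are scaled, and they set MIR3 apart from its relatives. The log2 ratio of MIRb to MIR3 was 1.15 to 1.25 in TOTAL and 1.18 to 1.23 in INPUT, but 1.28 to 1.39 in BO and 1.30 to 1.38 in IP. The log2 ratio of MIR to MIR3 was 1.03 to 1.05 in TOTAL, 0.98 to 1.08 in INPUT, 1.18 to 1.40 in BO and 1.14 to 1.19 in IP. In both ratios every bead library, with or without antibody, lay above every TOTAL and INPUT library, and BO and IP overlapped. For MIRc to MIR3 the ranges were 0.31 to 0.34 in TOTAL, 0.27 to 0.37 in INPUT, 0.36 to 0.53 in BO and 0.48 to 0.52 in IP, so that IP but not BO was clear of INPUT.

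IP and BO did differ in the balance of MIR with MIRc and with MIRb. The log2 ratio of MIR to MIRc was 0.63 to 0.71 in IP and 0.82 to 0.87 in BO, without overlap, with 0.70 to 0.73 in TOTAL and 0.71 to 0.74 in INPUT. The log2 ratio of MIR to MIRb was -0.18 to -0.16 in IP and -0.09 to 0.01 in BO, again without overlap, with -0.22 to -0.10 in TOTAL and -0.20 to -0.14 in INPUT. BO was thus the group that stood apart in both ratios, and IP overlapped TOTAL and INPUT. No test was run on these ratios (an exact two-sided permutation test of 3 against 3 libraries has 0.1 as its lowest p), and the ranges stand as a description.

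The share of the MIR family depended on the reads it was set against. Of all reads on repeat subfamilies it made up 0.534% to 0.784% in TOTAL, 1.38% to 1.44% in INPUT, 0.831% to 1.74% in BO and 1.58% to 1.87% in IP. The reads of the signal recognition particle RNA and of rRNA given above count towards these totals. Of transposon reads alone, the family made up 2.00% to 2.16% in TOTAL, 2.24% to 2.34% in INPUT, 1.95% to 2.01% in BO and 1.83% to 2.21% in IP. The IP range covered those of TOTAL and BO and lay wholly below that of INPUT. Among SINE reads alone the share was 4.82% to 4.94% in TOTAL and 5.44% to 5.52% in INPUT, and 5.44% to 5.85% in BO and 5.63% to 5.90% in IP, so it was lowest in TOTAL and IP lay above INPUT. The log2 ratio of MIR family to L2 reads was 0.63 to 0.65 in TOTAL, 0.70 to 0.78 in INPUT, 0.59 to 0.65 in BO and 0.59 to 0.66 in IP. The old SINE and its old partner LINE therefore kept nearly the same ratio in TOTAL, BO and IP, and INPUT was the group in which the MIR family was higher relative to L2.

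**Figure D3:**
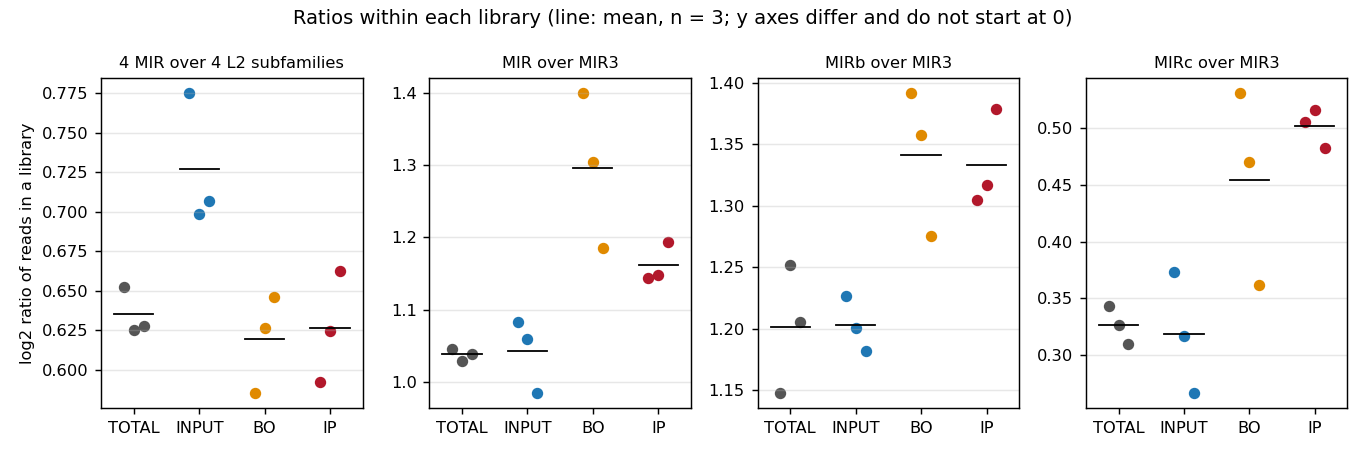
Log2 ratio of reads within each library (points) for the whole MIR family over L2 and for MIR, MIRb and MIRc over MIR3, with the mean of 3 libraries as a line; the y axes differ and do not start at 0. INPUT alone is high for the family over L2 (0.70 to 0.78), and BO and IP are both high for MIR and MIRb over MIR3.

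Single MIR family loci were read as group means, from 3 tables that were normalized separately and that each set IP beside 1 other group. Values of single libraries were not used here for loci, and neither were the errors and tests that the authors computed for their own comparisons, so the locus results below carry no replicate check and no test. A mean of 10 corresponds to between 19.9 and 47.8 reads summed over 3 libraries, depending on the group and on the library the reads came from. The names carry a running number that reaches 42141 for MIRb, 38953 for MIR, 23205 for MIRc and 16078 for MIR3, so the listed loci are a part of those numbered. Read for read they held between 46.4% and 60.1% of the MIR family reads of IP, and between 44.7% and 60.3% of those of INPUT. The share was between 43.4% and 67.6% in TOTAL and between 35.0% and 73.6% in BO.

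Among the listed loci, MIR family RNA was spread thinly over very many. Of the 26014, a mean above 0 was listed for 14013 in INPUT (53.9%), 12751 in TOTAL (49.0%), 12631 in IP (48.6%) and 9819 in BO (37.7%). BO thus had the fewest detected loci. Its 3 libraries held 112419 MIR family reads in all and those of IP held 86295. On the listed loci alone there were between 39375 and 82705 reads in BO and between 40008 and 51898 in IP. The part of read number in the count of detected loci was not tested. In all 4 groups together 3920 loci were above 0, and 1491 were at 0 throughout. The median of the detected loci was 0.65 in TOTAL, 0.573 in INPUT, 0.956 in BO and 0.497 in IP, or about 1 to 4 reads.

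In each of the 4 subfamilies INPUT had the most detected loci and BO the fewest. In INPUT the share of loci above 0 ran from 52.5% for MIRc to 54.9% for MIR, and in BO it ran from 35.2% for MIR3 to 39.2% for MIR. Few loci reached a mean of 10. The tables are scaled separately, and the number was 84 in IP and 251 in BO in their shared table, 133 in IP and 242 in INPUT, and 132 in IP and 148 in TOTAL.

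No small set of the listed loci carried their summed signal. Loci outside the list were not examined. The 10 highest loci held 6.06% of the summed MIR family mean in TOTAL, 7.17% in INPUT, 8.34% in BO and 7.07% in IP, and the 100 highest held 17.5%, 19.1%, 22.9% and 18.6%. It took 1275 loci to reach 50% of the sum in TOTAL, 1068 in INPUT, 823 in BO and 1336 in IP. BO was thus the most concentrated group and IP the least by that count. The 10 highest loci of each subfamily held 27.2% of the INPUT sum for MIR3, 18.1% for MIRc, 8.41% for MIR and 7.06% for MIRb, in the reverse order of the number of loci listed, on which such a share depends.

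**Figure D4:**
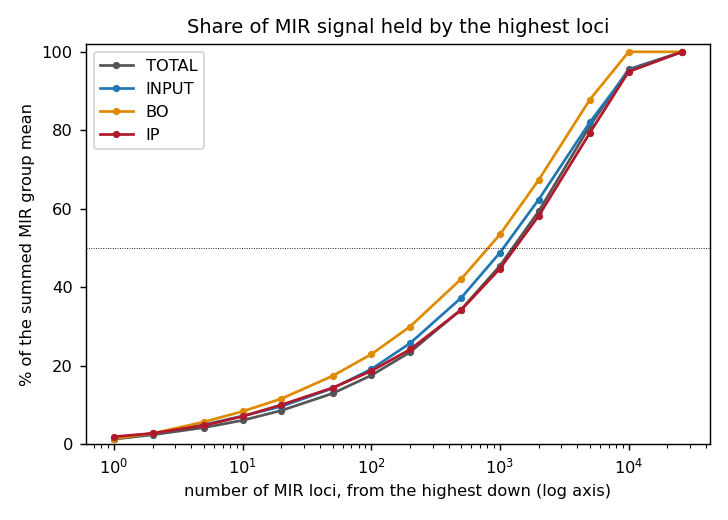
Share of the summed MIR family group mean (y axis, %) held by the highest loci, counted from the highest down (x axis, log scale), in each group. The IP curve starts highest (1.89% at 1 locus, against 1.42% in BO), and at 100 loci BO is the highest (22.9%, against 17.5% in TOTAL).

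Among loci with enough signal, most copies of the MIR family were lower in IP than in INPUT or BO, with a wide scatter, and IP and TOTAL were close to balanced. In the table with INPUT, 172 MIR family loci had group means that averaged at least 10, and their median log2 ratio of IP to INPUT (each mean plus 1) was -0.64, against -0.25 for the 6642 repeat loci that passed the same minimum. Of these, 66 were lower past a log2 ratio of 1 and 16 were higher, or 38.4% and 9.30%, beside 31.2% and 22.1% of all passing repeat loci. The medians were -0.81 for MIR, -0.83 for MIRb, -0.59 for MIR3 and -0.52 for MIRc, and the quartiles of all passing loci of the family were -1.49 and 0.31. Among other repeats the medians were -0.71 over 1003 B1 loci, -0.63 over 688 B4 loci, -0.47 over 801 B2 loci, -0.26 over 94 ID loci and -0.28 over 87 L2 loci.

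In the table with BO, 144 MIR family loci passed with a median of -1.29, against -0.90 for 5552 repeat loci. Here 81 were lower past 1 and 13 higher, or 56.3% and 9.03%, beside 47.7% and 17.3% of all. The gap between the family and all repeat loci depended on the minimum. With a minimum mean of 1 the medians were -0.62 and -0.56 against BO, -0.33 and -0.20 against INPUT, and -0.07 and -0.16 against TOTAL, where the family then lay above all repeat loci. In the table with TOTAL, at the minimum of 10, 131 passed with a median of -0.16, against 0.01 for 6185 repeat loci. With a minimum mean of 50 the median turned to 0.13, with 13 loci left. Of the 131, 62 had a ratio above 0, and 28 were lower and 23 higher (21.4% and 17.6%, beside 24.3% and 24.1%). The median was thus nearest to 0 against TOTAL. A locus had to be high in at least 1 of the 2 groups to pass, so these medians describe the passing loci and not all 26014.

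Summed over all listed loci, MIR3 again had the largest drop against INPUT. The log2 ratio of the IP sum to the INPUT sum was -0.54 for MIR3 and between -0.32 and -0.30 for MIR, MIRb and MIRc. With the 10 MIR3 loci highest in INPUT left out it was -0.44, and with the corresponding 10 of each other subfamily left out it was between -0.32 and -0.24. This comparison was added after the values had been seen. The MIR3 difference remained the largest of the 4. It can shrink by construction, because the loci left out were chosen as highest in INPUT, so no conclusion is drawn from its smaller size.

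The locus of the family highest in IP, in all 3 tables, was higher in IP than in the other group of each. It was chosen by its IP mean, which favours that direction. The 3 tables share the IP libraries, so they are not independent, and no conclusion is drawn from its direction. MIR_23702 had a mean of 320 in IP and 107 in INPUT, a log2 ratio of 1.57. In the table with BO it had 245 in IP and 84.0 in BO (1.53), and in that with TOTAL it had 319 in IP and 76.7 in TOTAL (2.04). The IP mean stands for 757 to 982 reads over the 3 IP libraries. It alone held 1.89% of the summed MIR family mean of IP.

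MIR3_7997, highest of all loci of the family in TOTAL and BO, was lower in IP throughout, with 146 in IP and 289 in INPUT (-0.98), 111 in IP and 280 in BO (-1.32), and 145 in IP and 217 in TOTAL (-0.58). MIR3_6573, highest in INPUT, had 113 in IP and 297 in INPUT (-1.39), and 113 in IP and 198 in TOTAL (-0.81), but 86.2 in IP and 57.1 in BO (0.59). These 2 copies of the same subfamily were thus both lower in IP than in INPUT and TOTAL, and differed in direction against the bare beads.

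MIRc_7766 and MIRc_12939 complete the 5 highest loci of IP. They too were chosen by their IP means, which favours a higher value in IP. MIRc_7766 was higher in IP in every table, with 117 in IP and 57.5 in INPUT (1.01), 89.1 in IP and 18.5 in BO (2.21), and 116 in IP and 46.5 in TOTAL (1.30). MIRc_12939 had 110 in IP and 194 in INPUT (-0.82), 83.5 in IP and 226 in BO (-1.43), and 109 in IP and 99.3 in TOTAL (0.13). These 2 copies of 1 subfamily went in opposite directions against INPUT and BO, and both ratios were above 0 against TOTAL.

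**Figure D5:**
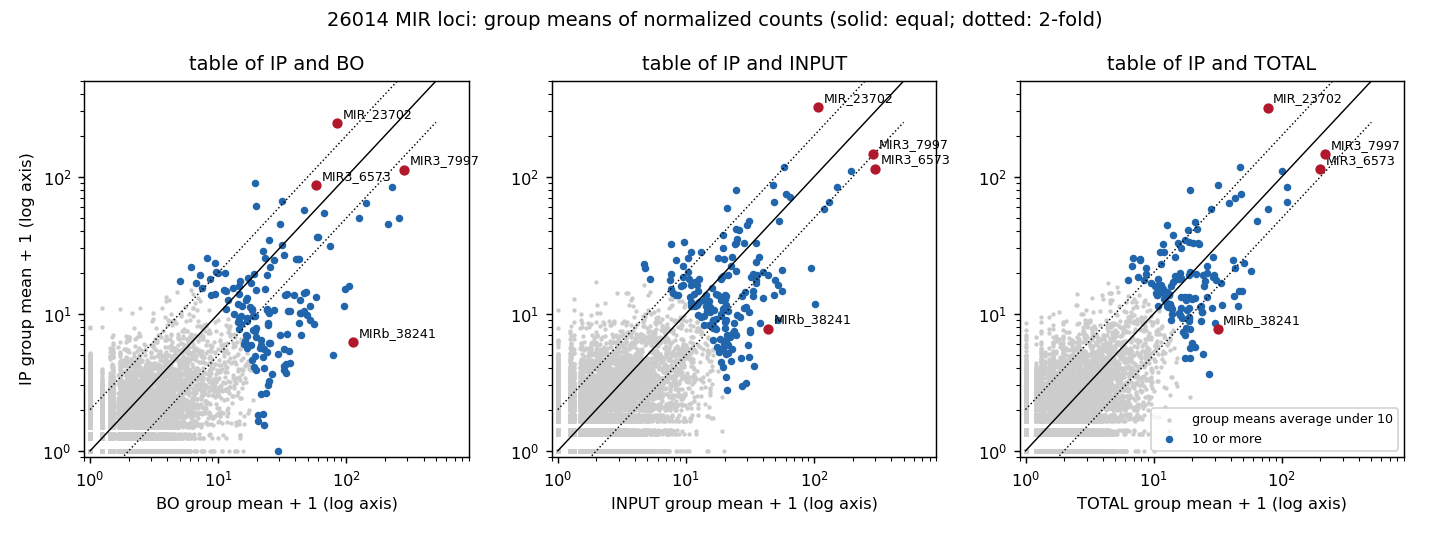
Group mean plus 1 of every MIR family locus in IP (y axis, log) and in BO, INPUT or TOTAL (x axis, log), 1 panel per table; blue points average at least 10, the solid line marks equal values, dotted lines mark 2-fold, and 4 named loci are red. MIR_23702 lies above the upper dotted line in all 3 panels, MIRb_38241 below the lower one, and the blue cloud lies mostly under the solid line for BO (median -1.29) and INPUT (median -0.64).

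The lowest ratios came both from loci near 0 in IP and from loci high in the other group. Against BO the lowest 3 were MIRb_7537, with 28.5 in BO and listed at 0 in IP, MIRb_38241, with 112 in BO and 5.18 in IP (-4.19), and MIRc_8559, with 77.6 in BO and 4.03 in IP (-3.97). With a floor of 3 reads over the IP group, MIRb_7537 was at least 29.4-fold lower in IP than in BO. MIRb_38241 was low in IP in every table, with 42.7 in INPUT and 6.80 in IP (-2.49), and 30.6 in TOTAL and 6.76 in IP (-2.03). MIRc_8559, in contrast, had 5.83 in INPUT and 5.25 in IP (-0.13), and 1.51 in TOTAL and 5.27 in IP (1.32), so its high level was seen in BO.

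Against INPUT the lowest were MIR3_5248 (28.3 in INPUT, 2.14 in IP, -3.22), MIRb_29239 (26.3 and 1.96, -3.20) and MIRb_16886 (100.6 and 10.7, -3.12). These copies were low in BO as well, at 2.48, 1.90 and 13.4 in the table with BO. Against TOTAL the lowest were MIR3_10453 (26.1 in TOTAL, 2.61 in IP, -2.91), MIRc_7131 (23.2 and 4.08, -2.25) and MIRb_38241, given above.

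The highest ratios came from loci of very different levels. Against INPUT they were MIRb_25315 (3.73 in INPUT, 22.1 in IP, 2.29), MIR3_9604 (3.81 and 20.7, 2.17) and MIRc_17056 (6.68 and 31.2, 2.07). Against BO they were MIRc_7766, MIRb_22897 (5.09 in BO, 20.9 in IP, 1.85) and MIR_18052 (3.99 and 16.3, 1.79). Against TOTAL they were MIR_23702, MIR3_4107 (18.4 in TOTAL, 78.5 in IP, 2.04) and MIRb_7134 (5.90 and 24.4, 1.88). MIR3_4107 was also higher in IP than in INPUT (23.5 and 78.6, 1.70) and BO (18.6 and 60.0, 1.64). MIR3 was the lowest of the 4 subfamilies as a sum against INPUT, and single MIR3 copies were among these highest ratios. The loci named here were chosen by their ratios, so their direction was set by the choice and no conclusion about the subfamily is drawn. These 3 tables share the IP libraries, and a locus high or low in IP shows in each of them.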

How the data were processed

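Reads of 12 libraries were not realigned. For repeats, the authors aligned them to the mm10 genome (STAR 2.6.0c), let Telescope place ambiguous reads, summed each subfamily and scaled libraries to a common upper quartile with EBSeq. The deposited signal is therefore a scaled count for each subfamily and library. In each library 100% of the values checked were whole multiples of 1 step (tolerance 0.1 of a read), which gave back the reads. For single loci the authors deposited group means from DESeq2 1.24.0 (3 tables, each scaled on its own). Their fold changes, errors, statistics and p-values in the same tables were not used.

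Groups came from the labels. Subfamilies with a mean of at least 10 (1180 of 1528, all 4 members among them) were tested with limma 3.58.1 in R 4.3.3, as 1 fit of 12 libraries with a trend, and called at an adjusted p under 0.05. On simulated reads for IP against BO, 99% of 200 changed subfamilies among 1180 were called at a log2 fold change of 1.5, and 7 unchanged ones. The simulation gave all subfamilies the same spread. Its changes were larger than every MIR subfamily difference of the main fit, so detection of differences that small was not tested. Same-numbered TOTAL and INPUT libraries deviated together (correlations 0.629, 0.339 and 0.321), which no other pair of groups did above 0.1 in all 3 numbers. Alternatives were other pseudocounts, filters and scalings, a replicate block, edgeR 4.0.16 on recovered reads, and each library left out. Named loci are, per table, the 5 highest in IP and the 3 highest and 3 lowest ratios among loci averaging at least 10. Of repeat rows, 298 duplicates were dropped. Members, lists and the choice of tests were made with earlier results of these data known. Counting error is the only error that read numbers give.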

Additional observations from a re-analysis of the deposited data

How the results depend on the processing

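No pseudocount changed the number of MIR subfamilies called. A minimum mean of 100 gave 1 (MIR3) lower in IP than in TOTAL, and no filter gave 3 lower in IP than in INPUT, without MIRc. Library totals gave 0 called lower in IP vs BO (log2 values 0.27 for MIR, 0.39 for MIRb, 0.40 for MIR3 and 0.45 for MIRc), 0 in IP vs INPUT (0.31, 0.32, 0.19 and 0.37) and 0 in BO vs INPUT (0.041 for MIR). They also gave 4 called higher, with 4 beyond 1 on the log2 scale, in IP vs TOTAL (1.504 for MIR, 1.51 for MIRb, 1.38 for MIR3) and in INPUT vs TOTAL.

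For IP vs BO, 0 subfamilies were called lower on transposon totals (MIRb 0.050, MIR3 0.058, MIRc 0.11), with median of ratios (0.018, 0.027 and 0.074), with edgeR (0.028, 0.035 and 0.083) and with only the compared groups in the fit. For IP vs INPUT the number lower was 1 on transposon totals, and 2 with median of ratios, edgeR or only the compared groups. For BO vs INPUT it was 2 on transposon totals, and 3 with median of ratios and with edgeR. For IP vs TOTAL, the sign turned for MIRc on transposon totals (-0.0025), for MIR (0.0065) and MIRb (0.014) with median of ratios, and for MIRb (0.00015) with edgeR.

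With 1 library left out, the number lower ran from 0 to 1 in IP vs BO and from 1 to 4 in IP vs INPUT. The log2 fold changes ran from -0.026 to 0.015 for MIR in BO vs INPUT, and in IP vs TOTAL from -0.094 to 0.0033 for MIR, from -0.093 to 0.016 for MIRb and from -0.018 to 0.043 for MIRc. Outside INPUT and TOTAL no pair of groups had correlations above 0.1 in all 3 numbers. For INPUT and BO they were 0.295, 0.062 and 0.558. The labels do not say whether same-numbered libraries share material. The replicate block gave 1 subfamily, MIR3, lower in IP than in TOTAL (-0.17, limma adjusted p = 0.0384), moved the calls over all subfamilies in IP vs TOTAL from 268 to 307, and changed no other MIR call. Of 36 matches between libraries of different groups, 18 were best with the own number. The count was 5 of 6 for TOTAL with INPUT, and 4 of 6 for INPUT with BO and for BO with IP. It was 3 of 6 for TOTAL with BO, 2 of 6 for TOTAL with IP and 0 of 6 for INPUT with IP.

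The median locus ratio of IP to BO was -0.77 with a pseudocount of 10, -0.62 with a minimum mean of 1 and -0.39 when centred on all repeat loci. That of IP to INPUT was -0.41, -0.33 and -0.39 in the same order, and -0.74 and -0.82 with minimum means of 5 and 50. That of IP to TOTAL turned to 0.13 with a minimum mean of 50, where 13 loci were left. The summed MIRb ratio of IP to TOTAL turned to 0.00034 without the 10 loci highest in TOTAL, a setting chosen after seeing the data. The causes of these changes were not tested. A split of loci by gene position was not run, locus means were used without a replicate spread, and differences near 0.1 are within the spread of 3 libraries.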
